A study of Mus musculus with 24 samples.

Results

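Cecr2 and 7 genes of the ISWI (imitation switch) chromatin remodelling family were followed in sorted basal cells of the mouse mammary gland. These 8 genes (Cecr2, Smarca1, Smarca5, Baz1a, Baz1b, Baz2a, Bptf and Rsf1) were taken by symbol from the 27080 genes counted, and all 8 passed the filter on low counts for both histone marks. Cecr2 was chosen by its H3K27me3 count, which differed between Tspan8hi and Tspan8- cells in these same libraries, so that difference is described here without a test, and the other 7 were added as genes of the same remodelling family. Untreated C57BL/6 females were the source of the cells, which had been sorted into 4 subpopulations by the presence or absence of the receptor Lgr5 and by a high or absent level of the tetraspanin Tspan8: Lgr5+Tspan8hi, Lgr5+Tspan8-, Lgr5-Tspan8hi and Lgr5-Tspan8-. For each subpopulation there were 2 chromatin immunoprecipitation libraries against H3K27me3 and 2 against H3K4me3, which gives 4 Tspan8hi and 4 Tspan8- libraries, and likewise 4 Lgr5+ and 4 Lgr5- libraries, for each mark. The age of the mice, the number pooled and the way Lgr5 was detected are not stated in the labels. Nothing in the labels ties replicates to different animals or pools, so a p-value here reflects the spread of these libraries, and that spread may be technical.

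ISWI enzymes use ATP to slide nucleosomes along DNA and to space them evenly. Mammals have a pair of ISWI ATPases, Smarca1 (SNF2L) and Smarca5 (SNF2H), each of which works with a larger partner protein that directs the complex to its targets. Cecr2 is a bromodomain partner that binds either ATPase and is required in the mouse embryo for closure of the neural tube. H3K4me3 marks the promoters of genes that are active or ready for use, and H3K27me3 is the repressive mark written by Polycomb complexes. Counts are given as CPM (counts scaled to a common library size). H3K27me3 counts grew with gene length, so this mark is compared between genes only as CPM per kb of gene. H3K4me3 counts did not follow the body of the gene: genes with neighbouring starts had nearly equal counts (median ratio 1.01 over 1670 pairs), so they are read as the level around the gene start.

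Averaged over the 8 libraries of each mark, the 8 genes differed in their marks. Cecr2 and Smarca1 carried H3K27me3 at 2.33 and 2.69 CPM per kb, at percentiles 84.9 and 88.4 of all genes tested. The remaining 6, all autosomal, lay between 0.187 and 0.266 CPM per kb with a median of 0.232, which the level at Cecr2 exceeded 10.1-fold. These 6 also had high H3K4me3, between 99.2 and 139 CPM (percentiles 87.3 to 97). Smarca1 had the lowest H3K4me3 of the 8 in 8 of 8 libraries, with a mean of 23.3 CPM. Cecr2, at 74.2 CPM, was second lowest in 7 of 8. Cecr2 thus had both marks: of 15735 genes tested for both, 59 others (0.375%) had at least its level of each, 7 of them X-linked and 52 autosomal. Choosing a gene by a difference in H3K27me3 favours genes with many reads of that mark. The H3K27me3 level of Cecr2, its excess over the 6 and this share are therefore descriptions that depend in part on the choice.

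**Figure D1:**
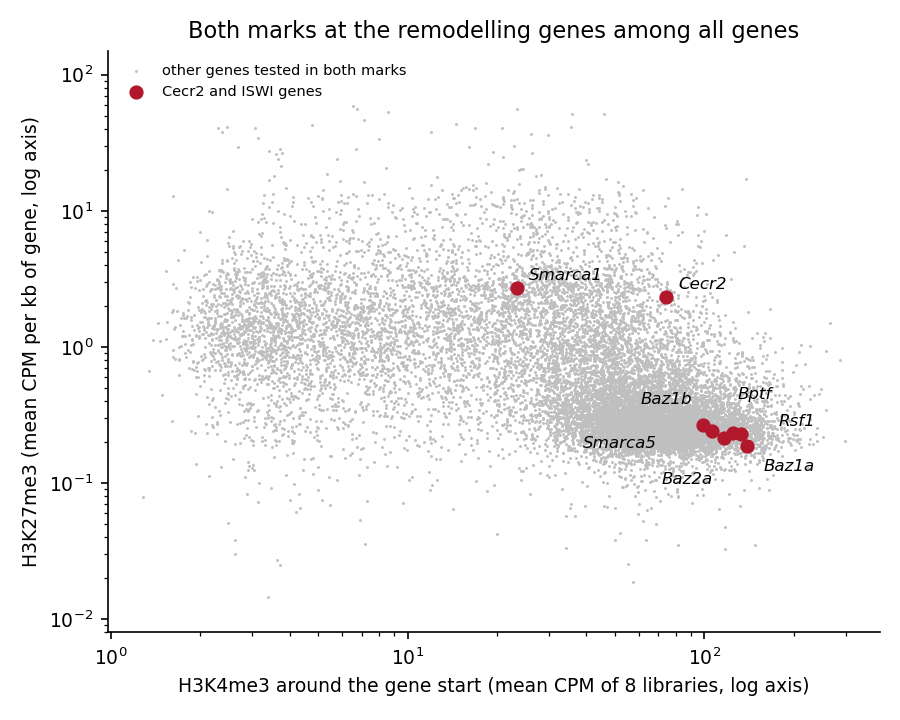
Each point is a gene tested for both marks, with its mean H3K4me3 (CPM around the gene start, log axis) across and its mean H3K27me3 (CPM per kb of gene, log axis) up, over the 8 libraries of each mark. Cecr2 (74.2 CPM and 2.33 CPM per kb) and Smarca1 (23.3 CPM and 2.69 CPM per kb) lie above the 6 other remodelling genes, which group between 0.187 and 0.266 CPM per kb.

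The libraries held 2639862 to 6972189 counted reads for H3K27me3 and 1472251 to 4740371 for H3K4me3. Lgr5-Tspan8hi replicate 1 stood apart in both marks, with 4191 genes without an H3K27me3 read (1121 to 1557 in the other 7) and 5844 without an H3K4me3 read (662 to 3007). H3K4me3 at Tspan8 itself followed the labels, at 80.7 ± 8.89 CPM in Tspan8hi and 25.2 ± 4.17 CPM in Tspan8- libraries (SD, n = 4 each; edgeR quasi-likelihood adjusted p = 3.25e-11). The Lgr5 gene itself carried H3K27me3 at 74.9 ± 24.8 CPM (SD) in the 4 Lgr5+ libraries, against 124 ± 28.1 CPM in the 4 that lacked it. That difference did not pass the threshold (edgeR adjusted p = 0.0536). H3K4me3 at Lgr5 averaged 88 CPM with Lgr5 and 70 CPM without, which did not pass either (log2 fold change 0.32, edgeR adjusted p = 0.961). Within Tspan8hi cells both marks at Lgr5 overlapped. H3K27me3 was 62.5 to 112 CPM in Lgr5+Tspan8hi and 96.6 to 112 CPM in Lgr5-Tspan8hi, and H3K4me3 61.7 to 94.5 and 74.3 to 80.8 CPM. Within Tspan8- cells neither mark did (H3K27me3 60.3 to 64.7 and 125 to 163 CPM, H3K4me3 95.9 to 100 and 51.9 to 72.8 CPM). Among defining basal genes Krt5, Krt14 and Acta2 had 141, 131 and 118 CPM of H3K4me3, whereas Trp63 and Mylk had 1.78 and 5.82 CPM around the start counted. Luminal markers had a median of 37 CPM, with Krt8 at 108 and Gata3 at 256, and fibroblast, endothelial and immune markers had medians of 29.8, 7.51 and 2.21 CPM, with none at 0. The summed H3K4me3 of the luminal markers was 755 to 821 CPM in Tspan8hi and 741 to 771 CPM in Tspan8- libraries, and that of the immune markers 36 to 80.9 CPM in Tspan8hi and 47.2 to 70.5 CPM in Tspan8- libraries. The fibroblast sum was 231 to 288 CPM in Tspan8hi and 263 to 360 CPM in Tspan8- libraries, the basal sum 1010 to 1140 CPM in Tspan8hi and 1100 to 1260 CPM in Tspan8- libraries, and the endothelial sum 82.4 to 131 CPM in Tspan8hi and 87.9 to 122 CPM in Tspan8- libraries. All 5 pairs of ranges overlapped, and the part of other cell types in the results was not tested. Dcn, a fibroblast marker, had less H3K4me3 in Lgr5+ than in Lgr5- libraries (log2 fold change -1.52 ± 0.24 SE, edgeR adjusted p = 0.000145), while the summed level of the 10 fibroblast markers was 256 to 277 CPM in Lgr5+ and 231 to 360 CPM in Lgr5- libraries.

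The paired ATPases showed opposite marks. Smarca5, the ATPase of the ACF, WICH, NoRC and RSF complexes, had 106 CPM of H3K4me3 and 0.242 CPM per kb of H3K27me3. Smarca1, the ATPase of the NURF and CERF complexes, had 4.55-fold less H3K4me3 than Smarca5 and 11.1-fold more H3K27me3 per kb. Their promoters also differ in CG dinucleotides, the sites of DNA methylation and of CpG islands. Whether the number of CG is linked to the marks was not tested, and only Smarca1 is X-linked. Below are the 250 bases before each RefSeq gene start (GRCm38.p6, both genes on the minus strand, chrX:47892614-47892863 for Smarca1 and chr8:80739460-80739709 for Smarca5), shown because the contrast in marks falls on this pair, with each CG in capitals.
Smarca1: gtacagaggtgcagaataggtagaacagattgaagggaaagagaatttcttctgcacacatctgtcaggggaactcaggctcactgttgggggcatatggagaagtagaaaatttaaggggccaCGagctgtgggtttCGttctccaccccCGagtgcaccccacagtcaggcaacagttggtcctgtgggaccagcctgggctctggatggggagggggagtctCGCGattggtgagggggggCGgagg
Smarca5: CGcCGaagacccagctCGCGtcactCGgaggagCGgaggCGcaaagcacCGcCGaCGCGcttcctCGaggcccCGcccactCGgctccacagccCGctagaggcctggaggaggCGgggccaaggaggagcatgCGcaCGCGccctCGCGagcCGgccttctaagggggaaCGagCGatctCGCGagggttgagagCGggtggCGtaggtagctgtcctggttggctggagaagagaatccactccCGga
The printed stretch holds 6 CG in Smarca1 and 29 in Smarca5. With the first 50 transcribed bases included, Smarca1 has 9 and Smarca5 has 32, numbers that 45.8% and 9.52% of 32851 RefSeq promoters of the same 300-base length reach or exceed. A CG was searched for as the letters CG, which read the same on both strands, and 94.6% of those promoters hold at least 1, with a median of 7. RefSeq promoter sequences were matched for 5 of the 8 genes (Smarca1, Smarca5, Baz1b, Baz2a and Bptf), and those of Baz1b and Bptf held 27 and 39 CG, the last reached by 4.45% of promoters. The stretch matched for Baz2a lies inside the gene as annotated and is not compared.

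Smarca1 lies on the X chromosome, and its H3K27me3 was near the middle of that chromosome. The 1021 X-linked genes tested had a median of 2.64 CPM per kb (quartiles 1.84 and 3.23), against 0.598 CPM per kb for 19922 autosomal genes, and Smarca1 stood at percentile 53.2 among the X-linked. H3K27me3 at Smarca1 was 200 and 233 CPM in Lgr5+Tspan8hi, 241 and 239 CPM in Lgr5+Tspan8-, 233 and 186 CPM in Lgr5-Tspan8hi and 214 and 249 CPM in Lgr5-Tspan8- libraries. The Tspan8hi and Tspan8- libraries overlapped, with a log2 fold change of -0.15 ± 0.10 (SE; edgeR adjusted p = 0.574), while the median over X-linked genes was -0.27 and over autosomal genes 0.04. H3K4me3 at Smarca1 was 21.8 and 16.6 CPM in Lgr5+Tspan8hi, 24.4 and 24.7 CPM in Lgr5+Tspan8-, 25.1 and 26.8 CPM in Lgr5-Tspan8hi and 18.1 and 29.3 CPM in Lgr5-Tspan8- libraries. That low level rests on 31 to 139 reads a library, and its differences had wide intervals (95% interval of the log2 fold change -0.65 to 0.38 for Tspan8hi minus Tspan8-, and -0.74 to 0.30 for Lgr5+ minus Lgr5-). Smarca5 H3K4me3 varied little, between 98.6 and 119 CPM over the 8 libraries, with log2 fold changes of 0.08 ± 0.12 for Tspan8hi minus Tspan8- and 0.00 ± 0.12 for Lgr5+ minus Lgr5- (SE; 95% intervals -0.17 to 0.33 and -0.24 to 0.25). Its H3K27me3, at 6.41 to 13.4 CPM from 17 to 87 reads, could not show differences of that size (95% interval -0.38 to 0.71 for Tspan8hi minus Tspan8-).

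**Figure D2:**
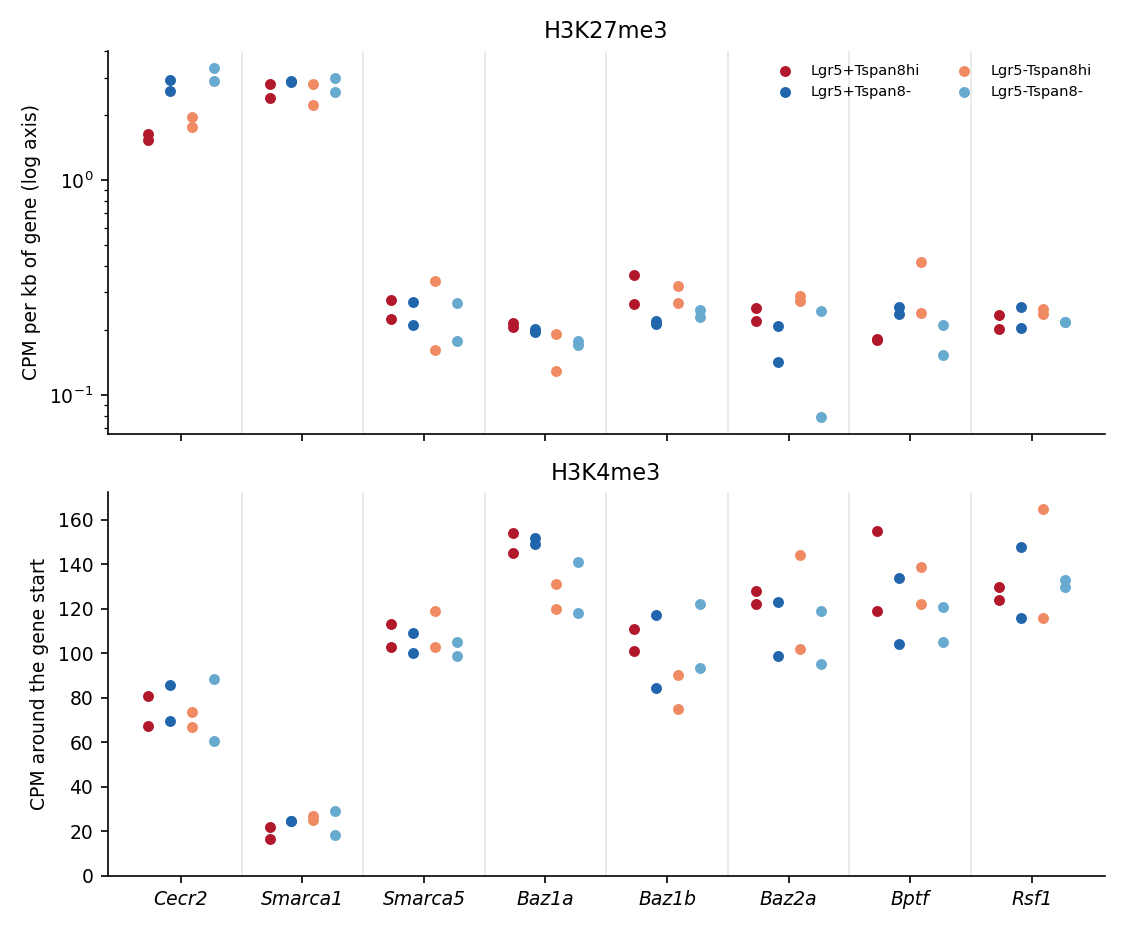
Each point is a library, coloured by subpopulation, with H3K27me3 as CPM per kb of gene on a log axis (top) and H3K4me3 as CPM around the gene start (bottom) for the 8 genes. Cecr2 and Smarca1 hold the highest H3K27me3 per kb and the lowest mean H3K4me3, though the H3K4me3 points of Cecr2 overlap those of Baz1b. Only at Cecr2 do the H3K27me3 points of the Tspan8hi subpopulations lie below all those of the Tspan8- subpopulations.

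Cecr2 (Entrez 330409, chr6:120666314-120771191 on the plus strand of GRCm38.p6, 105 kb) had less H3K27me3 in Tspan8hi cells, whether or not they carried Lgr5. It had 172 and 162 CPM in Lgr5+Tspan8hi and 186 and 206 CPM in Lgr5-Tspan8hi libraries. The Tspan8- libraries had 308 and 274 CPM in Lgr5+Tspan8- and 302 and 349 CPM in Lgr5-Tspan8- cells. All 4 Tspan8hi libraries were below all 4 Tspan8- libraries. The means were 181 ± 19.1 CPM in Tspan8hi and 308 ± 30.7 CPM in Tspan8- libraries (SD, n = 4 each), a ratio of 0.588 and a log2 fold change of -0.77 ± 0.09 (SE). The ratio of Tspan8hi to Tspan8- was 0.574 within Lgr5+ cells and 0.602 within Lgr5- cells, and the difference between these effects was -0.07 ± 0.18 on the log2 scale (SE; 95% interval -0.45 to 0.31; edgeR adjusted p = 0.998). Between 493 and 2322 reads lay behind each value. Each library pools many cells, so fewer cells with the mark and less mark per cell cannot be told apart. Each library gives a single count for the gene, which does not place the change within its 105 kb.

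**Figure D3:**
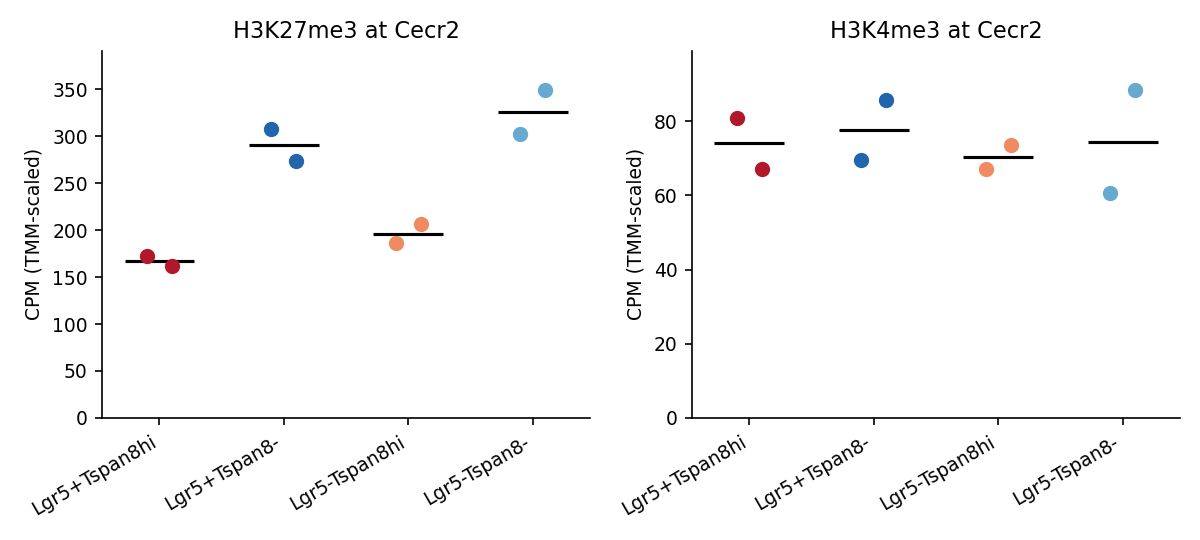
Points are libraries and bars the means of 2 libraries for Cecr2, with H3K27me3 (left) and H3K4me3 (right) as CPM from 0. H3K27me3 lies at 162 to 206 CPM in the Tspan8hi subpopulations and at 274 to 349 CPM in the Tspan8- subpopulations, while the H3K4me3 of all 4 subpopulations spans 60.6 to 88.4 CPM and overlaps.

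Among the 22099 genes tested for H3K27me3, 74 (0.335%) passed an adjusted p under 0.05 between Tspan8hi and Tspan8- libraries, 53 of them (0.24%) lower. Cecr2 is 1 of these 53 because the choice was made on this contrast, and nothing is read from that. The share of genes whose Tspan8hi libraries all lay below their Tspan8- libraries was 3.54%. As a description only, since Cecr2 was picked for the size of this difference: of 2350 genes with an H3K27me3 density within 1.25-fold of it, the median log2 fold change was -0.16, and 56 were below that of Cecr2. Of these 2350, Cecr2 included, 19 passed as lower and 0 as higher, so genes of this density leaned the same way as Cecr2. Over the 14 alternative settings the Cecr2 log2 fold change lay between -0.85 and -0.69, with -0.74 when Lgr5-Tspan8hi replicate 1 was left out. These refits reuse the libraries that chose the gene, so the range adds no support for the difference. A difference picked for its size may also be overstated. Library complexity moved with the same groups. The effective depth, the number of independent reads that would give the observed number of genes at 0, as a percent of the library's reads, was 54.1 ± 15.5% in Tspan8hi and 76 ± 3.5% in Tspan8- libraries of H3K27me3 (SD, n = 4 each), without overlap. Its part in the Cecr2 difference was not tested, and in these libraries it cannot be told apart from that of the Tspan8 level. Offsets fitted by loess to the mean level, which do not model effective depth, gave a difference of -0.69.

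H3K4me3 at Cecr2 showed no such separation. It was 80.9 and 67.2 CPM in Lgr5+Tspan8hi and 67 and 73.7 CPM in Lgr5-Tspan8hi, against 69.6 and 85.6 CPM in Lgr5+Tspan8- and 60.6 and 88.4 CPM in Lgr5-Tspan8- libraries. The Tspan8hi range lay inside the Tspan8- range. The log2 fold change was -0.09 ± 0.15 (SE; 95% interval -0.38 to 0.21; edgeR adjusted p = 0.978), which leaves room for a fall to 0.77-fold or a rise to 1.15-fold. Between Lgr5+ and Lgr5- libraries, the log2 fold change was 0.04 ± 0.15 for H3K4me3 (edgeR adjusted p = 1) and -0.20 ± 0.09 for H3K27me3 (SE; 95% interval -0.39 to -0.01; edgeR adjusted p = 0.683), neither of them past the threshold. Effective depth also differed for H3K4me3, at 34.6 ± 12.9% in Tspan8hi and 79.3 ± 20.4% in Tspan8- libraries (SD, n = 4 each), and its part in the H3K4me3 values was not tested.

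The order of the 2 members with dense H3K27me3 changed with the cells. Per kb, Cecr2 was below Smarca1 in 4 of 4 Tspan8hi libraries and above it in 3 of 4 Tspan8- libraries. This follows from the difference that chose Cecr2 and adds no evidence for it.

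None of the genes around Cecr2 passed the threshold, but only 0.335% of all genes tested did, so this says little about them. All 11 counted genes with starts within 500 kb were tested, and their H3K27me3 log2 fold changes for Tspan8hi minus Tspan8- ran from -0.41 to 0.46 with a smallest edgeR adjusted p of 0.287. The gene with the nearest start before that of Cecr2, 1700072O05Rik, had 31.6 ± 8.71 CPM in Tspan8hi and 41.1 ± 6.25 CPM in Tspan8- libraries (SD, n = 4 each; log2 fold change -0.41 ± 0.17 SE). The gene after Cecr2, the mitochondrial carrier Slc25a18, had 11 ± 3.57 CPM in Tspan8hi and 14.1 ± 1.74 CPM in Tspan8- libraries (SD, n = 4 each; -0.34 ± 0.24 SE). These nearest genes on either side thus had the same sign as Cecr2 with wide errors. Beyond them, Hdhd5 and Tmem121b before Cecr2 and Atp6v1e1, a subunit of the vacuolar proton pump, and Bcl2l13 after it had log2 fold changes of -0.03, 0.05, 0.10 and 0.10. Tmem121b was the densest of these neighbours, with 5.36 CPM per kb of H3K27me3, more than Cecr2, and 27.3 ± 1.59 CPM in Tspan8hi and 26.4 ± 2.47 CPM in Tspan8- libraries (SD, n = 4 each). The lncRNA Gm52876 lies inside Cecr2 and was not among the genes counted, and its reads, where counted to Cecr2, cannot be told apart from those of Cecr2.

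**Figure D4:**
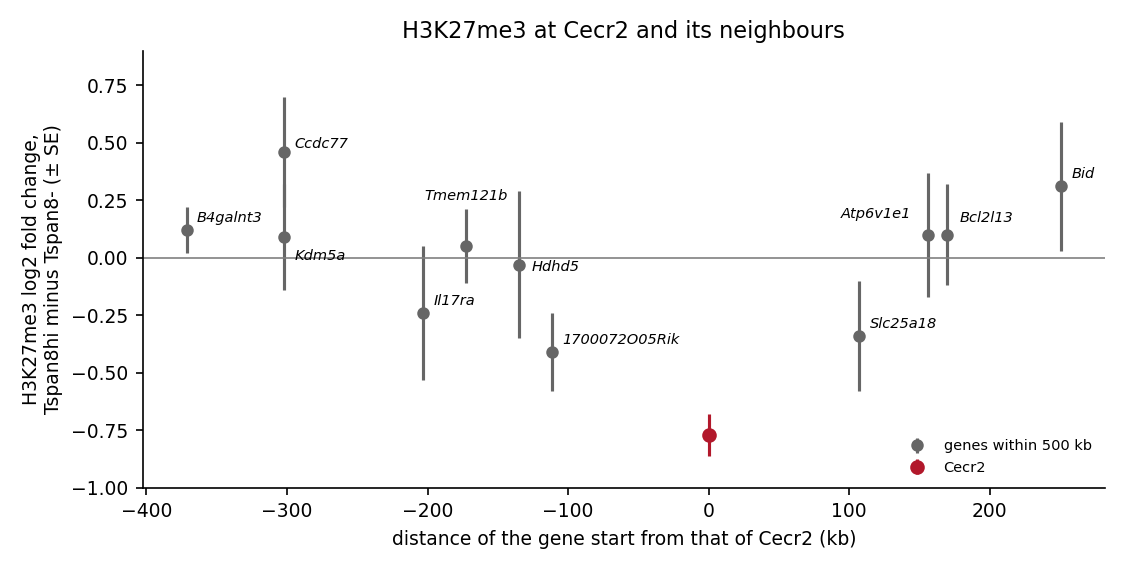
H3K27me3 log2 fold change (Tspan8hi minus Tspan8-, ± SE) of Cecr2 and of the 11 counted genes within 500 kb, against the distance of their starts from that of Cecr2 in kb. Cecr2 is at -0.77, and its neighbours are between -0.41 and 0.46.

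Bptf, the largest subunit of the NURF complex and a reader of H3K4me3 through its PHD finger, had 125 CPM of H3K4me3 and 0.235 CPM per kb of H3K27me3. Its H3K4me3 was 119, 155, 139 and 122 CPM in Tspan8hi, against 134, 104, 121 and 105 CPM in Tspan8- libraries, which overlap (log2 fold change 0.21 ± 0.12 SE, edgeR adjusted p = 0.866). Its H3K27me3 was 18.1 and 17.9 CPM in Lgr5+Tspan8hi against 23.4 and 25.6 CPM in Lgr5+Tspan8-, and 41.1 and 23.8 CPM in Lgr5-Tspan8hi against 15.3 and 20.9 CPM in Lgr5-Tspan8- libraries. The Tspan8hi libraries were thus lower within Lgr5+ cells and higher within Lgr5- cells. This interaction was -1.23 ± 0.38 on the log2 scale (SE; edgeR adjusted p = 0.617 over all genes), so it did not pass; 2 of 22099 genes (0.00905%) did. The value of 41.1 CPM came from Lgr5-Tspan8hi replicate 1, the library with the most genes without a read; the interaction was -0.80 without it, and -1.58 with an adjusted p of 0.0368 without Lgr5-Tspan8hi replicate 2.

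The 3 BAZ genes encode bromodomain partners of Smarca5: Baz1a (ACF1) forms the ACF nucleosome-spacing complex, Baz1b (WSTF) the WICH complex that acts at replicating DNA, and Baz2a (TIP5) the NoRC complex that silences ribosomal RNA genes. Baz1a had the highest H3K4me3 of the 8 genes (139 CPM) and the lowest H3K27me3 per kb (0.187). Its H3K4me3 was 145, 154, 149 and 152 CPM in Lgr5+, against 131, 120, 118 and 141 CPM in Lgr5- libraries. All Lgr5+ libraries were above all Lgr5- libraries, as for 1.58% of genes tested, with a log2 fold change of 0.23 ± 0.12 (SE; edgeR adjusted p = 0.971). Its H3K27me3 was also higher in every Lgr5+ library, at 26.3, 25.2, 23.8 and 24.6 CPM in Lgr5+, against 15.8, 23.3, 20.8 and 21.6 CPM in Lgr5- libraries (0.27 ± 0.17 SE; adjusted p = 0.805; the share of genes with this order was 2.1%).

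Baz1b had 15.6, 21.3, 15.8 and 18.9 CPM of H3K27me3 in Tspan8hi, against 12.5, 13, 14.6 and 13.5 CPM in Tspan8- libraries. Every Tspan8hi library was above every Tspan8- library, the reverse of Cecr2 and an order that 2.68% of genes tested had, but the log2 fold change of 0.43 ± 0.20 (SE) did not pass (edgeR adjusted p = 0.355), and the values rest on 42 to 122 reads from libraries with the same gap in effective depth. Baz1b H3K4me3 overlapped between the sides, at 74.8 to 111 CPM in Tspan8hi and 84.2 to 122 CPM in Tspan8- libraries. Baz2a had the fewest H3K27me3 reads, 13 to 67 a library, and ranged from 3.01 to 10.9 CPM; its log2 fold change for Tspan8hi minus Tspan8- of 0.58 ± 0.30 (SE; 95% interval -0.04 to 1.20; edgeR adjusted p = 0.426) is therefore poorly set. Its H3K4me3 was 95.1 to 144 CPM over the 8 libraries.

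Rsf1, the partner of Smarca5 in the RSF remodelling and spacing complex, was the steadiest of the 8 in H3K27me3, at 22.9 to 29.1 CPM over the 8 libraries, with log2 fold changes of 0.04 ± 0.16 for Tspan8hi minus Tspan8- and -0.04 ± 0.16 for Lgr5+ minus Lgr5- (SE). Its H3K4me3 averaged 133 CPM, between 116 and 165. The start of Rsf1 lies 313 bases from that of Aamdc, which had 131 CPM, so the H3K4me3 of these neighbours cannot be told apart. The order of the 8 genes in H3K4me3, from Baz1a at 139 through Rsf1 at 133, Bptf at 125, Baz2a at 116, Smarca5 at 106 and Baz1b at 99.2 to Cecr2 at 74.2 and Smarca1 at 23.3 CPM, had overlapping libraries at every step but that between Cecr2 and Smarca1.

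In H3K4me3, none of the 8 genes passed in either comparison or in the interaction, against 9 of 19009 genes (0.0473%) between Tspan8hi and Tspan8-, 8 (0.0421%) between Lgr5+ and Lgr5-, and 0 (0%) for the interaction, where DESeq2 also called 0 and 799 genes were under 0.05 before adjustment. In H3K27me3, none passed between Lgr5+ and Lgr5-, where 9 genes (0.0407%) did and 1589 had an unadjusted p under 0.05. Where DESeq2 gave an adjusted p for a member in these comparisons, it made no call either. The median H3K27me3 log2 fold change for Tspan8hi minus Tspan8- was 0.10 over the 8 genes and 0.02 over all genes tested. Of the 8 genes, 6 were above 0 and 2 below, against 11651 above and 10444 below over all genes tested. Cecr2, chosen by this difference, was among the 2 below, so nothing is read from the split.

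**Figure D5:**
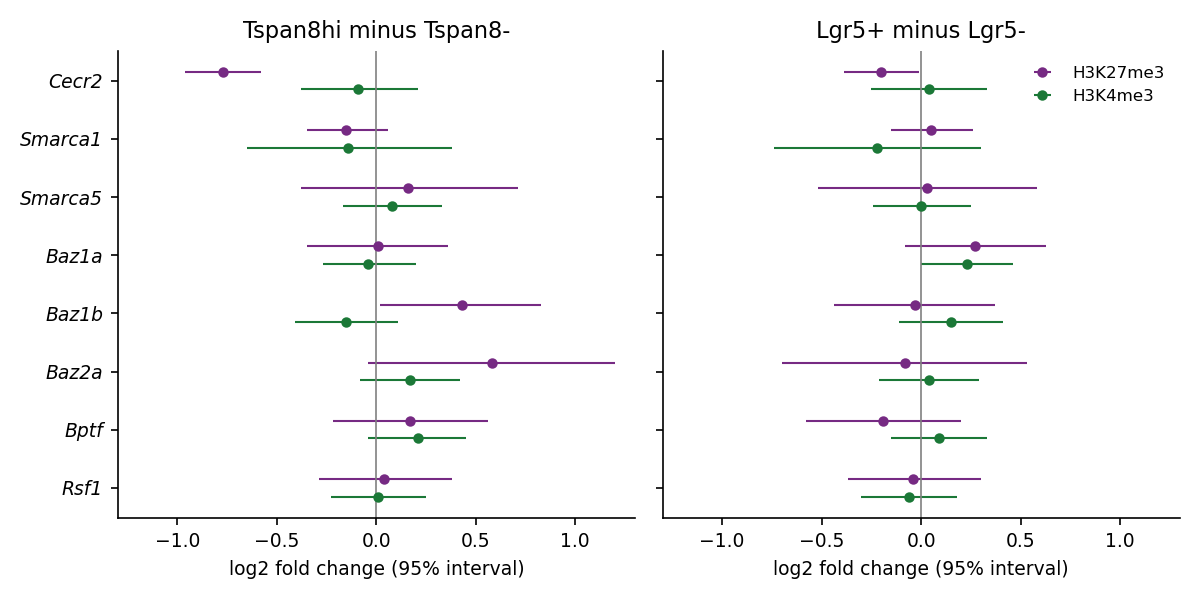
Log2 fold changes with 95% intervals for the 8 genes in H3K27me3 and H3K4me3, for Tspan8hi minus Tspan8- (left) and Lgr5+ minus Lgr5- (right). The H3K27me3 value of Cecr2 on the left, -0.77, is the difference that chose the gene, so its interval is not read as a test. The other intervals cross 0 or come close to it and none of them passed the threshold after adjustment.

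Other remodelling genes gave a setting for these levels. The lists held 6 further ISWI complex subunits, 10 CHD remodellers, 30 SWI/SNF subunits, 18 INO80 and SRCAP family subunits and 26 other bromodomain genes, 90 genes in all, of which 87 were tested for H3K27me3 and 89 for H3K4me3. None of those tested passed in any comparison, but at most 0.335% of all genes tested passed in any of them, so this does not set the lists apart. The median H3K27me3 log2 fold change for Tspan8hi minus Tspan8- was -0.13, -0.01, 0.05, 0.07 and 0.07 in these lists, in that order. Single genes spread more widely. The lowest, Kat2a (named after its value was seen), had a log2 fold change of -1.35 ± 0.85 (SE; edgeR adjusted p = 0.541) from 0 to 15 reads a library, with 0.571 ± 0.593 CPM in Tspan8hi and 1.72 ± 1.24 CPM in Tspan8- libraries (SD, n = 4 each). Of all 98 genes, 7 had more H3K27me3 per kb than Cecr2. They comprised every one of the 5 X-linked genes, namely Taf1 (3.33 CPM per kb, a subunit of the general factor TFIID), Atrx (3.19, which deposits histone H3.3 with Daxx), Smarca1, Rbbp7 (2.61, a histone-binding subunit shared by NURF and PRC2) and Brwd3 (2.59), and 2 autosomal genes, Actl6b and Chd5. Actl6b, the SWI/SNF actin-like subunit of neurons, had 3.54 CPM per kb with 3.26 CPM of H3K4me3, and Chd5, a CHD remodeller used mainly in neurons and testis, had 2.84 CPM per kb with 43.2 CPM of H3K4me3. Cecr2, at 74.2 CPM, had more H3K4me3 than both. The genes next below in these lists were Dpf1 (1.85 CPM per kb), Dpf3 (1.39) and Trim66 (1.03). Their H3K4me3 was 28.8, 127 and 3.81 CPM in that order, so the autosomal Dpf3 was above Cecr2 in that mark. Hmgxb4, Rbbp4, Chd6, Chd1l, Ino80e and Actr5, the next in their own lists, lay between 0.23 and 0.423 CPM per kb of H3K27me3. The 86 autosomal genes of the 5 other lists had a median of 0.229 CPM per kb. The place of Cecr2 among these genes is not independent of its choice by an H3K27me3 difference.

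The genes whose H3K27me3 most resembled that of Cecr2 over the 8 libraries were Mapk10 (Pearson r = 0.981, Spearman rho = 0.976), Pparg (0.975 and 0.976), Crtam (0.972 and 1.000), Syt3 (0.970 and 0.881), Armc3 (0.969 and 0.857) and Blnk (0.968 and 0.929), out of 6871 genes ranked by the correlation of log2 CPM. Mapk10 is the neuronal JNK kinase, and Pparg the nuclear receptor that directs fat cell formation. Pparg had 258 ± 23.5 CPM in Tspan8hi and 362 ± 18.6 CPM in Tspan8- libraries (SD, n = 4 each), and Mapk10 454 ± 5.97 CPM in Tspan8hi and 529 ± 12.6 CPM in Tspan8- libraries. Both differed in the direction of Cecr2 by a smaller factor, and that direction follows from picking them by likeness to Cecr2. These points share their libraries, depth and scaling, and the correlation is a description. The other remodelling genes, which were not picked by likeness, had r from -0.793 at Baz1b to 0.438 at Smarca1. In H3K4me3, the 6 most alike of 12398 genes were Zfp536 (r = 0.982), As3mt (0.966), Nkx2-2os (0.953), Maml3 (0.942), Prdm6 (0.931) and Dock5 (0.928), with rho of 1.000, 0.881, 0.929, 0.857, 0.952 and 0.976, and none of them was among the 6 found with H3K27me3.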

How the data were processed

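The authors deposited raw read counts for 27080 Entrez genes in each of 8 H3K27me3 and 8 H3K4me3 libraries, made, per the submitters' processing notes, with featureCounts on mm10. Which aligner, versions and counted region per gene were used is not stated in the labels. The inputs were not analysed here, and values are not relative to them. Symbols and coordinates came from RefSeq (GRCm38.p6), which matched 25189 of 27080 identifiers.

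Each mark was fitted separately with edgeR 4.0.16 in R 4.3.3 (filterByExpr, TMM, a mean per subpopulation, robust quasi-likelihood F test, Benjamini-Hochberg over all genes tested, threshold 0.05), with 22099 genes for H3K27me3 and 19009 for H3K4me3. CPM used the TMM-scaled library sizes. The interaction was the Tspan8 effect in Lgr5+ minus that in Lgr5- cells. The spread between libraries, as a biological coefficient of variation, was 16.8% for H3K27me3 and 16% for H3K4me3. Replicates differed by more than counting noise (chi-square per degree of freedom 3.07 to 5.91). The alternatives were DESeq2 1.42.0, RLE factors, library totals, loess offsets, no filter, a replicate block and leaving out each library. The fitting code was tested on simulated data. The members and lists were chosen with earlier results of these data known. Named genes were the members, the sorting genes, list genes past the threshold, the 3 of each list with the highest H3K27me3 per kb, the 3 nearest genes on each side of Cecr2, genes overlapping a member, and the 6 most like Cecr2 for each mark among genes averaging 20 CPM or more.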

Additional observations from a re-analysis of the deposited data

How the results depend on the processing

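Of 672 refitted differences of the 8 genes, 650 kept their direction where called and their side of the threshold with a like value, 21 moved and 1 passed newly; the last 22 were interactions, and the newly passing value was that of Bptf without Lgr5-Tspan8hi replicate 2. The Cecr2 H3K27me3 difference between Tspan8hi and Tspan8-, which chose the gene, lay between -0.85 and -0.69 over 14 alternatives. This range is a description only. The Cecr2 interaction in H3K27me3 lay between -0.17 and 0.10. With library totals in place of TMM, 4 of 64 subpopulation means moved by more than the spread of their 2 libraries. Ranking by Spearman correlation kept 2 of the 6 genes most like Cecr2 for each mark.

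The counts over all genes were less stable; the cause was not tested. For H3K27me3 between Tspan8hi and Tspan8-, 74 genes passed as reported, 476 with DESeq2 and 312 with no filter. The split of 21 higher and 53 lower became 49 and 33 with loess offsets, and 36 and 28 with library totals. Between Lgr5+ and Lgr5-, 9 became 71 with DESeq2, 14 with loess offsets and 42 with no filter, and the 2 interactions became 12 with DESeq2 and 15 with no filter. For H3K4me3 between Lgr5+ and Lgr5-, 8 became 5 with DESeq2.

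Leaving out 1 library gave 13 (Lgr5+Tspan8- replicate 1) to 1240 (Lgr5-Tspan8- replicate 1) genes for H3K27me3 between Tspan8hi and Tspan8-, with 17 and 36 without Lgr5+Tspan8hi replicates 1 and 2, 37 and 592 without Lgr5-Tspan8hi replicates 1 and 2, and 15 and 34 when replicate 2 of Lgr5+Tspan8- or of Lgr5-Tspan8- was dropped. It gave 3 to 165 between Lgr5+ and Lgr5- (3 without Lgr5+Tspan8hi replicate 2 or with either Lgr5+Tspan8- library gone, 145 without Lgr5-Tspan8hi replicate 2, 165 without Lgr5-Tspan8- replicate 1) and 0 to 109 for the interaction (0 without Lgr5+Tspan8- replicate 1; 1 each for its replicate 2, Lgr5+Tspan8hi replicate 1 and Lgr5-Tspan8- replicate 1; 5 without Lgr5+Tspan8hi replicate 2, 65 without Lgr5-Tspan8- replicate 2, 109 without Lgr5-Tspan8hi replicate 2). For H3K4me3 it gave 1 to 105 between Tspan8hi and Tspan8- (1 without Lgr5-Tspan8- replicate 2, 5 without Lgr5+Tspan8hi or Lgr5+Tspan8- replicate 2, 18 without Lgr5+Tspan8- replicate 1, 105 without Lgr5-Tspan8hi replicate 2), 1 to 14 between Lgr5+ and Lgr5- (2 and 14 without Lgr5-Tspan8hi replicates 1 and 2, 5 and 3 without Lgr5+Tspan8hi replicates 1 and 2, 1 when Lgr5-Tspan8- replicate 2 was dropped) and 0 to 15 for the interaction (4 without Lgr5+Tspan8- replicate 1, 15 without Lgr5-Tspan8hi replicate 2). A lone library left in a subpopulation was assumed to vary like the others.

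The labels do not say whether equal replicate numbers pair the samples. Between subpopulations, the differences of replicate 1 minus replicate 2 correlated at -0.01 to 0.12 for H3K27me3 and -0.04 to 0.14 for H3K4me3. Low correlations of such noisy differences cannot decide it. With a replicate block the counts for H3K27me3 were 678 (176 higher and 502 lower), 80 and 13 (Tspan8, Lgr5, interaction). Without the block they were 74, 9 and 2. For H3K4me3 the counts with the block were 13, 8 and 0, and no member gained a call. Counts of 13 to 184 reads at the 6 other autosomal genes limit what H3K27me3 can show there.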
